A study of Homo sapiens with 12 samples.

Results

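EGR1 and SRF stand for a group of 7 immediate-early genes, EGR1, SRF, IER2, IER3, IER5, NR4A1 and ZFP36, that were described in 2 human anaplastic thyroid carcinoma cell lines. They were taken by gene symbol from the deposited tables, where all 7 were found among 58735 genes, and all 7 passed the filter on low counts that left 16218 genes to test. The RNA-seq libraries came from KHM-5M, labelled BRAF V600E and grown in RPMI-1640, and from TTA-1, labelled BRAF wild type and grown in DMEM. Each line received DMSO or 1 µM GDC-0994, an inhibitor of the kinases ERK1 and ERK2, for 24 hours, with 3 libraries in each of the 4 groups. Each line is a single established culture line, so a difference between the lines is not a difference between BRAF genotypes, and the growth medium differed with the line. Nothing in the labels says that the 3 libraries of a group came from separate cultures, so that p-values measure the spread between these libraries only.

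Immediate-early genes are transcribed within minutes of a growth signal, without new protein synthesis, and their mRNAs are short-lived. ERK phosphorylates ternary complex factors such as ELK1, which sit with the serum response factor SRF on DNA sites called CArG boxes, and this switches on genes such as EGR1. SRF has a separate set of actin cytoskeleton targets, which it drives with the actin-regulated coactivators MRTFA and MRTFB. EGR1 and NR4A1 encode transcription factors, IER2, IER3 and IER5 encode nuclear or cytoplasmic regulators, and ZFP36 (tristetraprolin) binds AU-rich elements in mRNAs and speeds their decay. KHM-5M and TTA-1 were treated for much longer than an immediate-early response lasts, so the values are levels held under the inhibitor, not the induction itself.

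The 250 bases before the transcription start of EGR1 and SRF are shown because these were the only promoters among the genes that held CArG boxes, which are printed in capitals. Both come from RefSeq on GRCh38.p14 and are read on the plus strand, EGR1 from chr5:138465229-138465478 and SRF from chr6:43171019-43171268.
EGR1: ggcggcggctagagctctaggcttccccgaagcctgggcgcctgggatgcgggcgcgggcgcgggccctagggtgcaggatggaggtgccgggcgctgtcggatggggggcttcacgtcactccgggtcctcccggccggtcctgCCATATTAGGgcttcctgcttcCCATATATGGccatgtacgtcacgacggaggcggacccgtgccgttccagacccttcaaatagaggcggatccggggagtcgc
SRF: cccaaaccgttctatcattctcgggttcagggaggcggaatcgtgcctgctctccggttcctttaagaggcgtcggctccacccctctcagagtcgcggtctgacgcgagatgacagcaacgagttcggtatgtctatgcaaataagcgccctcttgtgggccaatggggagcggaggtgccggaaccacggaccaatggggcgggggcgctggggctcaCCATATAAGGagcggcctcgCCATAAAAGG
The search covered both strands of windows from 250 bases before to 50 bases after each RefSeq start, for 6 of the 7 genes (IER3 was not in the table). In EGR1 the 2 CArG boxes begin 105 and 83 bases before the start, and in SRF they begin 30 and 10 bases before it. The windows of IER2, IER5, ZFP36, both starts of NR4A1 and a second start of SRF held none. Of 35116 such windows in the RefSeq table, 454 (1.29%) held a CArG box and 11 (0.0313%) held 2 or more. The EGR1 window also held 2 copies of TGACGT, the core of the cAMP response element. At least 1 copy occurs in 7.98% of windows and 2 or more in 2.20%. The SRF window held 1 copy of GCGGGGGCG, an EGR1-type site, which occurs in 5.07%. The ETS core GGAA was in every window searched of the 6 genes and in 95.5% of all windows.

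Levels are given in CPM, the count scaled by the TMM-normalised library size, for replicates 1, 2 and 3 in that order. Fold changes are on the log2 scale with their standard error after ±, and a gene rose or fell where edgeR's quasi-likelihood test gave an adjusted p below 0.05 over all tested genes. After GDC-0994 in KHM-5M, EGR1, IER2, IER3, IER5 and NR4A1 fell, ZFP36 rose and SRF was not called. Of all genes tested, 25.1% fell and 24.6% rose in KHM-5M, against 5 and 1 of these 7. In TTA-1, EGR1, SRF, IER2, IER3 and IER5 fell, while NR4A1 and ZFP36 were not called. There the background was far lower, with 2.24% of all genes falling, against 5 of the 7. The 7 genes, and the gene lists below, were chosen with earlier results of these data known. Their shares beside the background are therefore a description and not a test. Since all values come from whole cultures, fewer cells of a kind and less RNA per cell cannot be told apart.

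**Figure D1:**
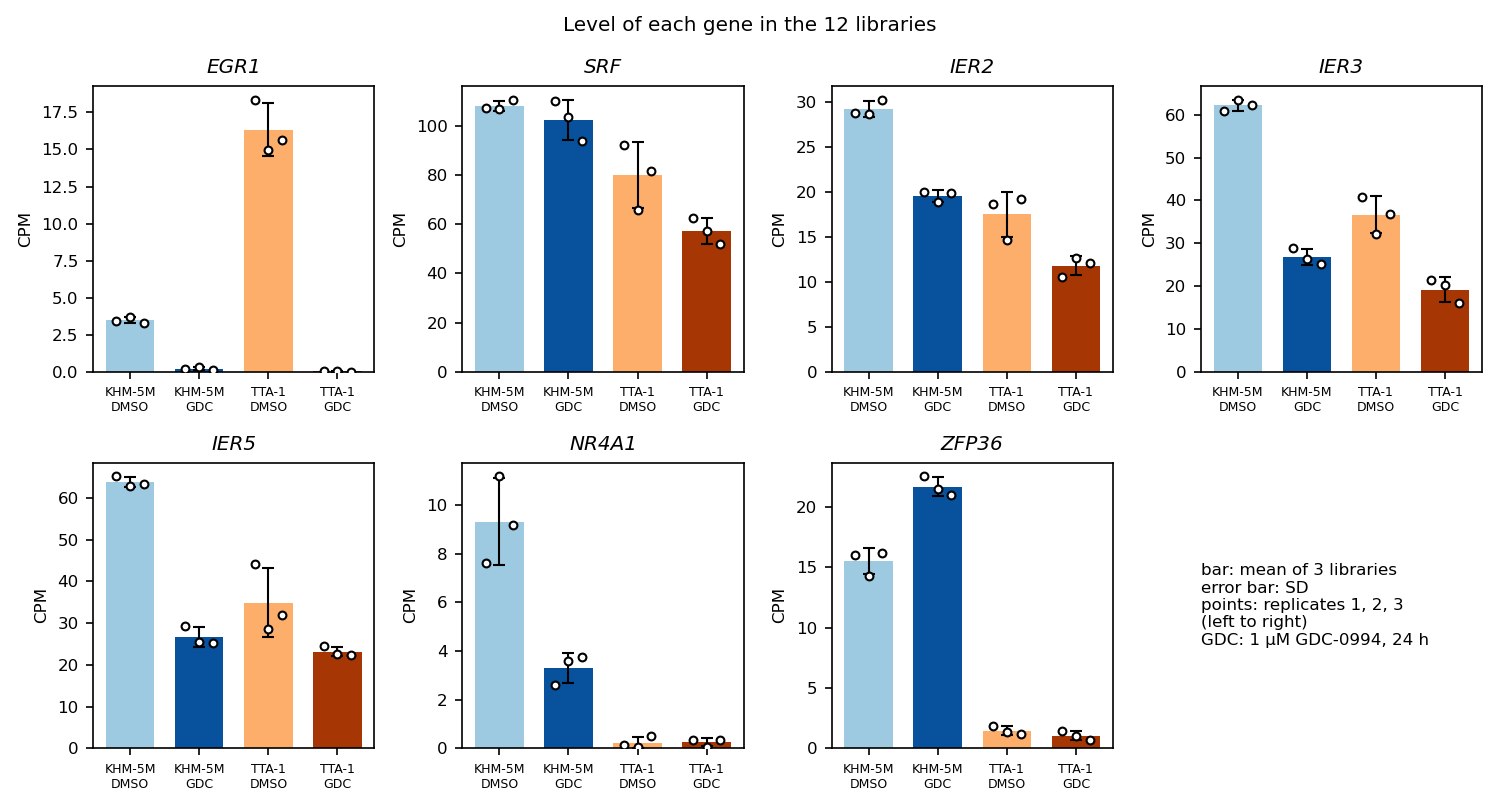
Level of each gene in CPM (linear axis from 0) in the 4 groups, with the mean of 3 libraries as a bar, the SD as an error bar and each library as a point. EGR1 was near 0 under GDC-0994 in both lines, SRF overlapped between treatments in KHM-5M, ZFP36 was higher with GDC-0994 in KHM-5M, and NR4A1 and ZFP36 were low throughout TTA-1.

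EGR1, a zinc finger transcription factor induced by growth factors, lies on chromosome 5 (138465490 to 138469315, plus strand, GRCh38). In KHM-5M it measured 3.44, 3.69 and 3.32 CPM with DMSO and 0.211, 0.332 and 0.123 CPM with GDC-0994. In TTA-1 it measured 18.4, 14.995 and 15.6 CPM with DMSO, and 0.0667, 0.0669 and 0 CPM with GDC-0994. The treated libraries of both lines lay far below their controls, and the DMSO level was 4.69-fold higher in TTA-1 than in KHM-5M. Summed over 3 libraries, 183 counts became 12 in KHM-5M, a depth-adjusted ratio of 15.5 with a 95% interval of 8.65 to 30.5, and 758 became 2 in TTA-1, a ratio of 363 with an interval of 100.1 to 3001. These exact intervals cover counting error only. EdgeR's log2 fold change was -3.91 ± 0.39 in KHM-5M (adjusted p = 1.07e-08) and -8.28 ± 0.88 in TTA-1 (adjusted p = 3.89e-10), the latter resting on 2 counts and on the fit's prior count. DESeq2 gave wider standard errors, 0.46 and 1.04. The fall was larger in TTA-1, with a difference of the effects (KHM-5M minus TTA-1) of 4.37 ± 0.96 (edgeR interaction, adjusted p = 2.62e-04). On log2(FPKM + 1), which understates the change of low genes, limma gave a difference of 1.61.

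The order of EGR1 levels reversed with treatment, but the treated levels were close to the limit of counting. A count of 0 in TTA-1 GDC-0994 replicate 3 allows up to 0.207 CPM (3 counts), which overlaps the KHM-5M GDC-0994 range. The 12 against 2 counts gave a ratio of 5.00 with a 95% counting interval of 1.11 to 46.0. EdgeR called EGR1 higher in KHM-5M under GDC-0994 (2.14 ± 0.95, adjusted p = 0.0168). The call was lost without KHM-5M GDC-0994 replicate 2 (adjusted p = 0.0953) and without TTA-1 GDC-0994 replicate 3 (adjusted p = 0.0763). It was also lost by DESeq2's Wald test (adjusted p = 0.0547) and by limma on log2(FPKM + 1), where the difference was 0.08 (adjusted p = 0.346 with the filter and 0.458 without), with a range over 22 settings of 0.00837 to 0.458.

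SRF itself, on chromosome 6 (43171299 to 43181507, plus strand), had the highest CPM of the 7 genes in every group. Its KHM-5M levels were 107.2, 106.6 and 110.5 CPM with DMSO and 110.1, 103.3 and 93.7 CPM with GDC-0994, ranges that overlap. The change in KHM-5M was -0.08 ± 0.11, with a 95% interval of -0.32 to 0.16 and an adjusted p of 0.567. In TTA-1 it measured 92.3, 65.8 and 81.6 CPM with DMSO and 62.4, 57.2 and 51.9 CPM with GDC-0994. All treated TTA-1 libraries were below all controls, but the lowest control and the highest treated library were close. The fall in TTA-1 was -0.48 ± 0.11 (edgeR, adjusted p = 0.0189). It was not called without TTA-1 DMSO replicate 1 (adjusted p = 0.0703) or 3 (0.0853), without TTA-1 GDC-0994 replicate 2 (0.0809) or 3 (0.124), when only the TTA-1 libraries were fitted (0.114), or by limma on log2(FPKM + 1) with no filter (0.114). Over 25 settings the adjusted p ran from 1.35e-05 to 0.124. The difference between lines, 0.41 ± 0.15, was not called (edgeR interaction, adjusted p = 0.0556). It was called in 11 of 24 settings, among them upper quartile scaling (adjusted p = 0.0321), library totals (0.0370) and DESeq2's Wald test (0.0338). The smallest edgeR values were 8.22e-04 without TTA-1 DMSO replicate 2 and 0.00148 with a trend with GC content and gene length removed. In the other 13 settings the difference was not called (adjusted p up to 0.134). A different response of SRF in the lines therefore depended on the setting and is not shown here.

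IER2, IER3 and IER5 fell in both lines. IER2, which encodes a nuclear protein of the immediate-early class, lies on chromosome 19 (13150415 to 13154908, plus strand). It measured 28.8, 28.7 and 30.3 CPM in KHM-5M with DMSO and 19.99, 18.9 and 19.9 CPM with GDC-0994. Its TTA-1 levels were 18.7, 14.7 and 19.2 CPM with DMSO and 10.6, 12.6 and 12.2 CPM with GDC-0994. The treated libraries did not overlap the controls in either line. Its fall was -0.58 ± 0.11 in KHM-5M (edgeR, adjusted p = 3.18e-04) and -0.57 ± 0.12 in TTA-1 (adjusted p = 0.0116), and the difference of -0.01 had a 95% interval of -0.38 to 0.36. The TTA-1 call was lost without TTA-1 DMSO replicate 3 (adjusted p = 0.0712), without TTA-1 GDC-0994 replicate 1 (0.0566) and with TTA-1 fitted alone (0.0888), within a range over 25 settings of 2.85e-04 to 0.0888.

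IER3, an ERK substrate and regulator of cell survival, lies on chromosome 6 (30743199 to 30744554, minus strand). Its levels in KHM-5M were 60.8, 63.5 and 62.2 CPM with DMSO and 28.8, 26.3 and 25.2 CPM with GDC-0994. In TTA-1 they were 40.8, 32.2 and 36.9 CPM with DMSO and 21.4, 20.2 and 16.0 CPM with GDC-0994. Control and treated libraries lay well apart in both lines. It fell by 1.22 ± 0.11 in KHM-5M (edgeR, adjusted p = 9.12e-08) and by 0.93 ± 0.11 in TTA-1 (adjusted p = 1.28e-04), and both calls held in all 25 settings. The difference between lines, -0.28 ± 0.16, was not called (adjusted p = 0.208).

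IER5, a regulator of the heat shock factor HSF1 and of the phosphatase PP2A, lies on chromosome 1 (181088712 to 181092899, plus strand). Its KHM-5M levels were 65.2, 62.9 and 63.4 CPM with DMSO and 29.4, 25.4 and 25.2 CPM with GDC-0994. In TTA-1 it measured 44.2, 28.5 and 31.9 CPM with DMSO and 24.4, 22.6 and 22.4 CPM with GDC-0994. TTA-1 DMSO replicate 1 stood well above the other 2 controls, and no treated library reached a control. The fall was -1.26 ± 0.13 in KHM-5M (edgeR, adjusted p = 3.47e-07) and -0.59 ± 0.13 in TTA-1 (adjusted p = 0.0173). IER5 fell more in KHM-5M, with a difference of -0.67 ± 0.18 (edgeR interaction, adjusted p = 0.0108). Leaving out TTA-1 DMSO replicate 1 brought the TTA-1 change to -0.39 (adjusted p = 0.0563), and leaving out TTA-1 GDC-0994 replicate 2 or 3 gave adjusted p of 0.0810 and 0.0869. With TTA-1 fitted alone it was 0.114, in a range over 25 settings of 1.15e-05 to 0.118. The difference between lines was lost without TTA-1 DMSO replicate 3 only (adjusted p = 0.0547), and its range over 24 settings began at 1.25e-04.

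NR4A1 (NUR77), an orphan nuclear receptor, lies on chromosome 12 (52022832 to 52059507, plus strand) and was far higher in KHM-5M than in TTA-1. It measured 7.61, 11.2 and 9.17 CPM in KHM-5M with DMSO and 2.58, 3.60 and 3.74 CPM with GDC-0994. In TTA-1 it measured 0.130, 0.0658 and 0.505 CPM with DMSO and 0.333, 0.0669 and 0.346 CPM with GDC-0994. All KHM-5M libraries were above all TTA-1 libraries, and control and treated libraries were apart in KHM-5M and mixed in TTA-1. It fell in KHM-5M by 1.50 ± 0.25 (edgeR, adjusted p = 9.71e-05). In TTA-1 11 counts in the controls stood against 11 in the treated libraries, a depth-adjusted ratio of controls to treated of 0.957 with a 95% counting interval of 0.376 to 2.43, beside a ratio of mean levels of 2.82 in KHM-5M. The difference between lines, -1.56 ± 0.79, was not called (edgeR interaction, adjusted p = 0.169). Without TTA-1 DMSO replicate 3, which held 8 of the 11 control counts, the difference was -2.73 and was called (adjusted p = 0.0349). Limma also called it on log2(FPKM + 1), at -0.63 (adjusted p = 0.00233 with the filter and 0.00356 without), and on log2(FPKM + 0.1), at -1.32 (0.0177). The other 20 of 24 settings did not call it, with adjusted p up to 0.419.

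ZFP36, on chromosome 19 (39406813 to 39409412, plus strand), was the only one of the 7 genes that rose. It measured 16.1, 14.3 and 16.2 CPM in KHM-5M with DMSO and 22.6, 21.5 and 21.0 CPM with GDC-0994, with no overlap. Its TTA-1 levels were 1.89, 1.32 and 1.20 CPM with DMSO and 1.47, 1.00 and 0.691 CPM with GDC-0994, which overlapped. The rise in KHM-5M was 0.48 ± 0.14 (edgeR, adjusted p = 0.00763), and limma on log2(FPKM + 0.1) did not call it (adjusted p = 0.0606). The TTA-1 value, -0.47 ± 0.28, was not called (adjusted p = 0.403). The effects differed between lines by 0.95 ± 0.31 (edgeR interaction, adjusted p = 0.0278). That call was lost without TTA-1 DMSO replicate 1 (adjusted p = 0.0887), TTA-1 GDC-0994 replicate 2 (0.0599) or TTA-1 GDC-0994 replicate 3 (0.0775), in a range over 24 settings that began at 0.00423.

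**Figure D2:**
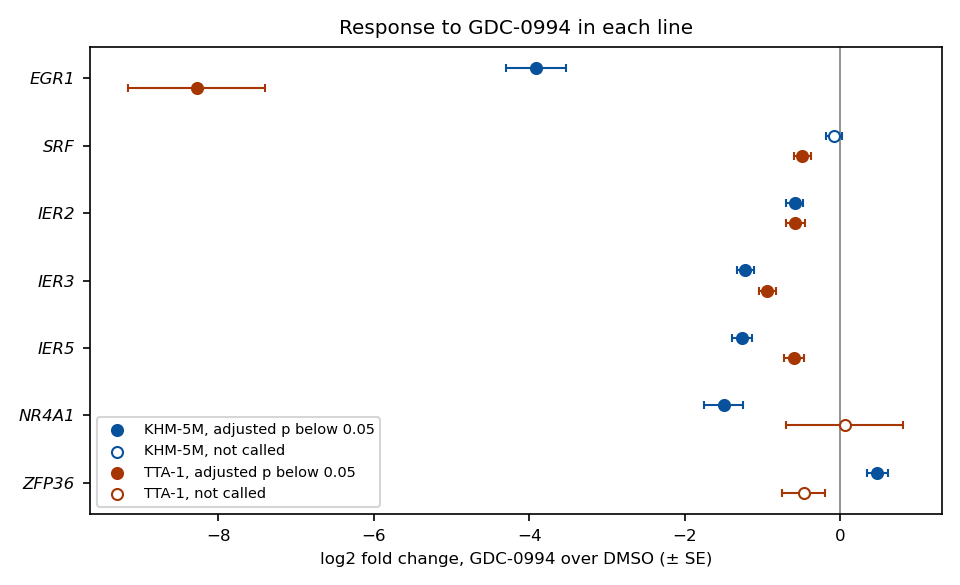
Log2 fold change of GDC-0994 over DMSO (horizontal axis, with the standard error) for each gene in KHM-5M (blue) and TTA-1 (brown); filled points passed an adjusted p of 0.05 in edgeR. EGR1 fell most in both lines and further in TTA-1, the 2 points of IER2 nearly coincide (-0.58 and -0.57), and ZFP36 lay on opposite sides of 0, with only the KHM-5M point filled.

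Set side by side, the effects of the 2 lines differed for EGR1, IER5 and ZFP36 and not, by the test, for the other 4 genes. Of all genes tested, 27.9% differed in either direction, so 3 of 7 is close to the background. The sign was not shared by these 3, since EGR1 fell further in TTA-1, IER5 fell further in KHM-5M and ZFP36 rose in KHM-5M and was not called in TTA-1. The median log2 fold change over the 7 genes was -1.22 in KHM-5M and -0.57 in TTA-1, beside 0.02 and 0.01 over all tested genes.

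Between the lines without inhibitor, 6 of the 7 genes were called higher in KHM-5M and EGR1 was called higher in TTA-1, against 39.6% of all genes higher and 36.8% lower in KHM-5M. NR4A1 differed most, 39.9-fold (5.25 ± 0.56), followed by ZFP36 at 10.6-fold (3.40 ± 0.21). The other differences were smaller, from 0.44 ± 0.11 for SRF (edgeR, adjusted p = 0.00134) through 0.74 for IER2 and 0.76 for IER3 to 0.87 for IER5. The direction for SRF flipped when a trend with GC content and gene length was removed (-0.24, adjusted p = 6.82e-04), and IER2 was then not called (0.15, adjusted p = 0.168). Under GDC-0994, 6 of the 7 genes were called higher in KHM-5M, against 41.0% of all genes, and IER5 was not called (0.21, adjusted p = 0.159). IER5 was called higher in 6 of its 23 alternative settings, among them upper quartile scaling (0.37, adjusted p = 0.0207) and library totals (0.34, adjusted p = 0.0254). With the same trend removed, only EGR1, NR4A1 and ZFP36 remained called there, while 7170 of all 16218 genes tested were called higher in KHM-5M. SRF, IER2 and IER3 then measured 0.12, 0.12 and 0.14 (adjusted p = 0.0673, 0.279 and 0.111).

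Ranked by FPKM, which corrects for gene length, IER3 came first in KHM-5M DMSO at 45.2 FPKM, followed by SRF at 25.4, IER5 at 15.04, IER2 at 9.41 and ZFP36 at 7.63. NR4A1 (1.26 FPKM) and EGR1 (1.10 FPKM) came last there, with ranges that overlapped. With GDC-0994 in KHM-5M, SRF (24.5 FPKM) stood above IER3 (19.8 FPKM), and ZFP36 (10.9 FPKM) moved above IER2 and IER5 (6.42 and 6.41 FPKM), which overlapped. In TTA-1 DMSO the order was IER3 at 26.2, SRF at 18.5, IER5 at 8.09, IER2 at 5.54 and EGR1 at 5.05 FPKM, the last pair overlapping. ZFP36 (0.709 FPKM) and NR4A1 (0.0310 FPKM) were lowest in TTA-1 DMSO. With GDC-0994 in TTA-1, IER3 (13.7 FPKM) and SRF (13.2 FPKM) overlapped, and EGR1 (0.0137 FPKM) fell to the bottom beside NR4A1 (0.0331 FPKM).

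The libraries of a group were not equally close, and TTA-1 DMSO was the widest group. Across 9127 genes, the deviation of a library from the others of its group correlated with GC content at 0.75 in TTA-1 DMSO replicate 1 and at -0.72 in replicate 2, and from -0.58 to 0.62 in the other 10 libraries (a description over genes, which are not replicates). The 7 genes have exon GC contents of 49.8% to 61.7%, against a median of 48.3% over tested genes. In TTA-1 DMSO replicate 1, 6 of the 7 genes were higher than the mean of the other 2 libraries (median difference 0.25), and in replicate 2 all 7 were lower (median -0.29, on log2(CPM + 1)). All 5 genes that fell in TTA-1 were still called without DMSO replicate 2, and 3 were called without DMSO replicate 1, DMSO replicate 3, GDC-0994 replicate 2 or GDC-0994 replicate 3. Over all genes, 556 were called in TTA-1, against 2620 without DMSO replicate 2, 349 without DMSO replicate 1 and 311 without DMSO replicate 3. Total counts ranged from 14952970 to 18389915 per library.

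**Figure D3:**
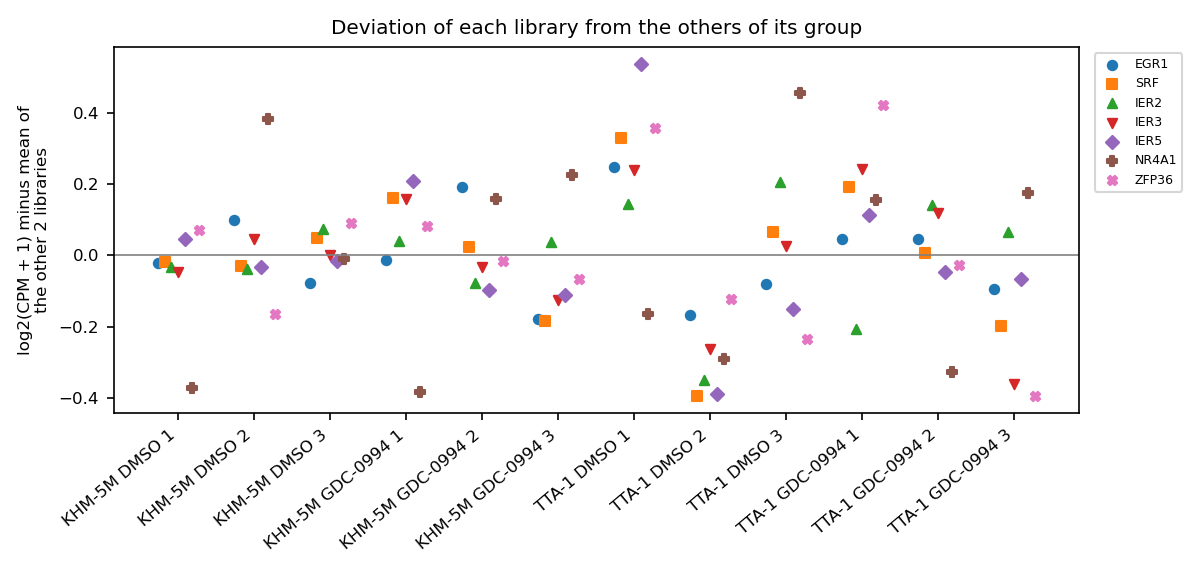
Log2(CPM + 1) of each gene in each library minus the mean of the other 2 libraries of its group (vertical axis), by library (horizontal axis). In TTA-1 DMSO replicate 2 all 7 points lie below 0, and in replicate 1 of that group 6 of 7 lie above 0.

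Of 6 SRF cofactors, 5 were tested (MYOCD had 1 count in all). In KHM-5M 2 of the 5 fell, beside 25.1% of all genes, and in TTA-1 1 fell, beside 2.24%. ELK1, a ternary complex factor that ERK phosphorylates, fell in KHM-5M (-0.79 ± 0.12, edgeR adjusted p = 4.62e-05) and measured -0.24 ± 0.11 in TTA-1 (adjusted p = 0.272). ELK3, a related factor that can also repress, fell in both, by 0.60 ± 0.08 in KHM-5M and by 0.72 ± 0.08 in TTA-1. ELK4 (0.15 and 0.16), MRTFA (-0.25 and -0.0046) and MRTFB (0.18 and 0.22) were not called in either line. The effect on ELK1 differed between lines (-0.55 ± 0.17, adjusted p = 0.0191), and this was lost in 7 of 24 settings.

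Among relatives of the 7 genes and the NAB corepressors of EGR1, 7 of 10 were tested, of which 1 fell in KHM-5M, below the share of all genes (25.1%), and 3 fell in TTA-1, where 2.24% of all genes fell. EGR2 and EGR3 had 17 and 10 counts summed over all 12 libraries, and EGR4 had 0, which allows at most 0.0153 CPM, so EGR1 was the only gene of its family that passed the filter on low counts. ZFP36L2, another AU-rich element binding protein, fell in KHM-5M (-0.96 ± 0.12) and in TTA-1 (-0.50 ± 0.12, edgeR adjusted p = 0.0242). ZFP36L1 measured 0.15 ± 0.07 in KHM-5M and fell in TTA-1 (-0.30 ± 0.07, adjusted p = 0.0344), with a difference between lines of 0.45 ± 0.10 (adjusted p = 0.00349). NAB2, itself an EGR1 target that limits EGR1, fell in TTA-1 (-0.68 ± 0.16, adjusted p = 0.0241) and measured -0.23 ± 0.13 in KHM-5M. NAB1, NR4A2, NR4A3 and IER5L were called in neither line. Without TTA-1 DMSO replicate 1 none of the 3 TTA-1 calls held, and 228 of all 16676 genes tested then fell in TTA-1. Without TTA-1 DMSO replicate 2 the count was 4, beside 1726 of all 16678 genes tested.

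Other immediate-early genes, 16 in a list that holds no member, were split in KHM-5M, where 7 rose and 8 fell with a median of -0.05, beside 24.6% rising and 25.1% falling among all genes. In TTA-1 1 rose and 7 fell, with a median of -0.38, beside 1.18% and 2.24% of all genes, and across 25 settings the number that fell there ran from 3 to 9. FOS, an AP-1 subunit and SRF target, fell in both lines (-3.15 ± 0.40 in KHM-5M and -1.70 ± 0.34 in TTA-1), as did PLK3, a stress-response kinase (-1.62 ± 0.15 and -0.85 ± 0.15). KLF6, a zinc finger factor, fell in KHM-5M (-0.77 ± 0.06) and measured 0.07 in TTA-1. RHOB, a small GTPase, rose in KHM-5M from 20.02 to 80.8 CPM (2.01 ± 0.09) and in TTA-1 from 22.1 to 28.8 CPM (0.38 ± 0.10), where 12 of 25 settings did not call it. CCN1, a secreted matrix protein, rose in KHM-5M (0.69 ± 0.07) and fell in TTA-1 (-0.47 ± 0.07), with a difference of 1.16 ± 0.11 (edgeR interaction, adjusted p = 2.98e-07). TRIB1, a pseudokinase, rose in KHM-5M (0.67 ± 0.10) and fell in TTA-1 (-0.37 ± 0.10), the latter at an adjusted p of 0.0491 that 18 of 25 settings lost.

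Actin cytoskeleton targets of SRF mostly rose in KHM-5M, unlike 5 of the 7 genes. Of 13 tested, 8 rose and 1 fell in KHM-5M, with 6 to 10 rising across 25 settings, beside 24.6% rising and 25.1% falling among all genes. In TTA-1 0 rose and 1 fell by edgeR's quasi-likelihood test, with 0 higher and 4 lower at an unadjusted p below 0.05, and DESeq2 called 0 higher and 2 lower. The list's median was 0.25 in KHM-5M and -0.16 in TTA-1. TAGLN, an actin-binding protein of smooth muscle, rose from 23.9 to 88.1 CPM in KHM-5M (1.88 ± 0.09) and stood at 0.773 and 0.586 CPM in TTA-1. MYL9, a myosin light chain, rose from 133 to 487 CPM in KHM-5M (1.88 ± 0.10) and was at 3.81 and 4.77 CPM in TTA-1. TPM1, a tropomyosin, rose from 172 to 391 CPM in KHM-5M (1.18 ± 0.07) and measured 77.5 and 77.1 CPM in TTA-1. FHL2, a LIM-domain cofactor and SRF target, fell in both lines (-0.99 ± 0.08 and -0.62 ± 0.09). The difference between lines was called higher in KHM-5M for 8 of 13 and lower for 1, with a median of 0.66, beside 12.3% higher and 15.6% lower among all genes. Without TTA-1 DMSO replicate 2, the number that fell in TTA-1 was 5, but 1726 of all 16678 genes tested then fell there too.

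**Figure D4:**
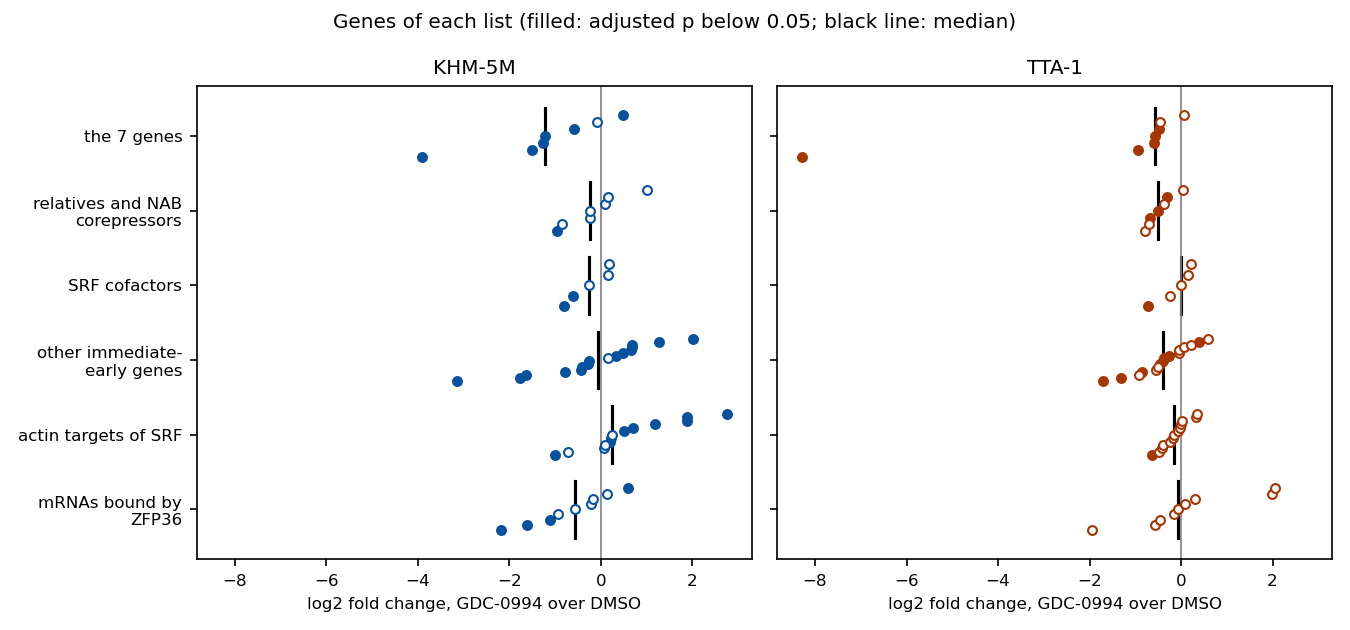
Log2 fold change of GDC-0994 over DMSO (horizontal axis) for each tested gene of each list in KHM-5M (left) and TTA-1 (right), with filled points at an adjusted p below 0.05 and the median as a black line. The actin targets of SRF spread to the right in KHM-5M (8 of 13 rose) while in TTA-1 0 of 13 rose and 1 fell, with a median of -0.16.

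Of genes with at least 1 CArG box in a window, 169 were tested. In KHM-5M 51 (30.2%) rose and 49 (28.99%) fell, near the 25.9% and 27.7% of the 10983 tested genes that have a window. In TTA-1 4 rose and 9 fell, a share of 5.33% falling beside 2.39%, and the 9 include EGR1 and SRF. Besides EGR1 and SRF, 4 tested genes had 2 or more CArG boxes. Of these, named for their windows, CUL4B (1.02), ING4 (1.22) and ZNF548 (0.71) rose in KHM-5M, and AGPAT1 measured -0.10.

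Of 10 listed mRNAs that ZFP36 is known to bind, 9 were tested (CSF2 was too low). In KHM-5M 1 rose and 3 fell, with 1 to 4 falling across 25 settings, shares near the 24.6% rising and 25.1% falling among all genes. In TTA-1 0 were called by edgeR's quasi-likelihood test, 0 at an unadjusted p below 0.05 and 0 by DESeq2. CXCL1, a chemokine, rose in KHM-5M (0.59 ± 0.16, edgeR adjusted p = 0.00762). VEGFA, the angiogenic growth factor, fell in KHM-5M from 74.7 to 24.3 CPM (-1.62 ± 0.09), and IL1B (-2.17 ± 0.38) and TNF (-1.11 ± 0.29) fell there from below 3 CPM. VEGFA measured 38.3 and 40.5 CPM in TTA-1, and its effects differed between lines (-1.70 ± 0.12, adjusted p = 1.63e-08). The nonamer that ZFP36 binds, TTATTTATT, occurs in the 3′ untranslated region of 8.16% of 19128 genes (1 transcript per gene) and in those of 3 of the 7 genes, ZFP36 itself, SRF and IER5. These stretches, from the GENCODE 29 transcripts, are shown with the match in capitals because ZFP36 is one of the 7 genes.
ZFP36: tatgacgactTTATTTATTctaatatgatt
SRF: atggcaccacTTATTTATTgttgccttttc
IER5: gtgtcttcctTTATTTATTTATTTATTtaa
IER5 held 3 overlapping copies and the other 2 held 1 each. The 3′ untranslated regions of IER5 and SRF, 3013 and 2317 bases, are longer than the median of 1083 bases over those genes, and that of ZFP36 has 713. The shares were not adjusted for length. In KHM-5M IER5 fell, SRF was not called and ZFP36 rose. In TTA-1 IER5 and SRF fell and ZFP36 was not called.

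Over the 12 libraries the 7 genes did not share one profile. On log2(CPM + 1), pairs without EGR1 correlated at 0.43 to 0.96 (Pearson), and EGR1 correlated with the other 6 at -0.25 to 0.60. These are descriptions over libraries that share line and treatment. Among 11138 protein-coding genes that were expressed in at least 1 group, those nearest to EGR1 were KCNJ12, a potassium channel (0.99), ETS1, an ETS transcription factor (0.97), and ANTXR2, an anthrax toxin receptor (0.94). Nearest to SRF were BCAR1, MAF1 and PPARD (0.99 or above), and nearest to IER2 were PDGFA, PLEK2 and ITGA3 (at least 0.98). IER3 lay closest to C2CD2, SEMA7A and VPS37B (0.98), and IER5 to AP1M1, FAM110A and DLST (0.98 to 0.99). NR4A1 lay closest to INPP5F, SLC6A17 and CACNA2D4 (0.99), and ZFP36 to CAPN1, CAPNS1 and SLC12A9 (0.998).

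The labelled tissue was checked against thyroid follicular markers. Of 8, thyroglobulin (TG) and SLC5A5 had 0 counts in KHM-5M, and 2 genes in KHM-5M and 1 in TTA-1 reached 1 CPM. Their summed level was 204.9 to 222.3 CPM in KHM-5M DMSO, 120.0 to 127.7 with GDC-0994, and at most 5.35 CPM in TTA-1, nearly all of it PAX8. At least 6 of 7 epithelial or dedifferentiated carcinoma markers were present in each group, and summed levels of blood, endothelial, C cell and melanocytic markers were at most 3.82 CPM in any library. Annotated genes on the opposite strand overlap IER2 (AC011446.2, 0 counts), IER3 (IER3-AS1, 0 to 2 counts) and NR4A1 (AC025259.3, 0 counts). No step that marks the strand is described, so reads from these cannot be told apart from the genes they overlap.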

How the data were processed

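Polyadenylated RNA of 12 libraries was sequenced, 3 for each line and treatment. Per the submitters' processing notes, the build was GRCh38 and the tools featureCounts 1.5.0-p3, HISAT2 2.0.5 and CASAVA, with no role given. The authors deposited raw counts per gene and, separately, FPKM, which the values show to be the count divided by gene length and by 1 library size. The total count per library ranged from 14952970 to 18389915, and precision for genes of few counts is limited by counting. All 58735 gene IDs matched GENCODE 29.

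Counts were fitted with edgeR 4.0.16 in R 4.3.3: filterByExpr (minimum count 10, minimum total 15), TMM scaling and quasi-likelihood tests in 1 model of 12 libraries with 8 residual degrees of freedom. P-values were adjusted by Benjamini-Hochberg over 16218 genes and called below 0.05. Standard errors are Wald errors from the model's information and quasi-likelihood dispersion. Alternatives used DESeq2 1.42.0, limma 3.58.1 on log2(FPKM + 1) or log2(FPKM + 0.1), other scalings and filters, removal of a GC and length trend, a replicate block, and leaving out each library. The counts over lists under these settings were added after seeing the data. The scripts were tested on simulated data.

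The rule for named genes takes all 7 members, all SRF cofactors, relatives and NAB corepressors, up to 3 risen and 3 fallen genes of each other list and line by p, the 3 protein-coding genes nearest each member by Pearson correlation, and overlapping genes. Members and lists were chosen with earlier results of these data known, and no p was adjusted over a list alone. The 3 KHM-5M GDC-0994 samples carry 1 repeated column name in the labels and were matched by replicate number.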

Additional observations from a re-analysis of the deposited data

Results flagged for a closer look

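The effect of GDC-0994 differed between the 2 lines, by edgeR's interaction test, for 3 of the 7 genes. This is close to the background, since 27.9% of all genes tested differed in either direction. EGR1 fell further in TTA-1, with a difference (KHM-5M minus TTA-1) of 4.37, and it fell in 3 of 3 libraries of each line. IER5 fell further in KHM-5M, with a difference of -0.67, and all 3 treated libraries of each line were below their controls. ZFP36 was higher in 3 of 3 treated KHM-5M libraries and overlapped its controls in TTA-1, with a difference of 0.95. The call on the difference was lost in 1 of 24 settings for IER5 and in 3 of 24 for ZFP36.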

How the results depend on the processing

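Across scalings, filters, tools and left-out libraries, 788 of the alternative values for single genes kept their side of the threshold, and their direction where called. Of the rest, 28 lost a call, 21 gained one and 1 reversed. The reversal was SRF in DMSO, at -0.24 (KHM-5M over TTA-1) with the GC and length trend removed, and the cause was not tested. Direction was not compared for values that were never called. Among these, the log2 fold change with GDC-0994 ran from -0.13 to 0.04 for SRF in KHM-5M and from -0.38 to 1.26 for NR4A1 in TTA-1. In TTA-1, 5 genes were called in the main model, 2 with only the TTA-1 libraries fitted (fewer samples, 6 genes tested), 3 by limma on log2(FPKM + 1) with no filter, and 3 to 5 with 1 library left out. Between the treated lines, 3 of the 7 were called with the GC and length trend removed, beside 13181 of all 16218 genes tested. Over all genes in TTA-1, 556 were called in the main model (192 higher, 364 lower), 870 by DESeq2's Wald test, 1206 with no filter, 206 with TTA-1 fitted alone, 1007 with the trend removed (481 higher, 526 lower), 1032 with the trend and the replicate block, 341 by limma on log2(FPKM + 1) with no filter, and 259 to 2620 with 1 library left out, the highest without TTA-1 DMSO replicate 2. For the difference between lines, removing the trend gave 3320 higher and 2732 lower genes in place of 1995 and 2532. Upper quartile scaling moved the median of all genes by 0.16 between the treated lines. No pairing of libraries by replicate number was seen: deviations of same-numbered libraries correlated at -0.07 to 0.16, and those of different numbers at -0.24 to 0.25. These few pairs cannot exclude a pairing, since deviations in TTA-1 DMSO also followed GC content. With the replicate block, 6, 5 and 3 of the 7 genes were called in KHM-5M, TTA-1 and for the difference, as without it, and no call on them changed. Over all 16218 genes tested, the fit with the block called 7849, 529 and 4225, in the same order. The block could not be fitted between lines, nor the model of only the groups compared for the difference. Depth limited EGR1 and NR4A1 in TTA-1, where 2 and 11 treated counts were all there was.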
